A study of Mus musculus with 2 samples.

Results

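The Arp2/3 complex is the actin nucleator that starts a new filament as a branch on the side of an existing one. Its subunits were followed here in C57/BL6 mouse cells sorted as LT-HSC, the long-lived blood-forming stem cells of the marrow. All sequences of an expression array whose gene name was Actr2, Actr3, Arpc1a, Arpc1b, Arpc2, Arpc3, Arpc4, Arpc5 or Arpc5l were taken, which gave 18 of the 44170 sequences on the array and 9 of 24171 genes. The groups were a knockout, named in the labels as WASH knockout, with 1 array, and a wild type control with 1 array. Bone marrow from femurs was sorted by flow cytometry in both. The labels used here give neither the age of the mice, nor the driver of the deletion, nor how many animals gave RNA to an array. With no replicates, no difference below was tested against the spread between animals, and p-values and standard errors cannot be had. The values are RMA intensities (robust multi-array average, 1 value per sequence from its probes, in arbitrary units), and each difference is the log2 intensity of the knockout minus that of the control, so -1 is 2-fold lower in the knockout.

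The complex is built around the actin-related proteins Arp2 and Arp3, which take the shape of the end of an actin filament once an activator brings them together, and a set of scaffold subunits, ARPC1 to ARPC5, which hold them and grip the mother filament. WASH, the protein that the labels name as knocked out, is one of its activators and works on the surface of endosomes, where branched actin helps to sort membrane cargo. ARPC1 and ARPC5 each exist as paralogues that replace one another in the complex: Arpc1a and Arpc1b, Arpc5 and Arpc5l. In humans, ARPC1B is the main ARPC1 form of blood cells, and its loss causes an immune deficiency with abnormal platelets.

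Most subunit sequences were lower on the knockout array. Of the 18 sequences, 16 were lower and 9 were at least 2-fold lower, while 6.80% of the 41886 sequences with a gene symbol were at least 2-fold lower and 49.4% were lower at any size. These counts take the values as deposited. For 1 of the 9, a sequence of Actr2, the knockout value lay under the level of random-sequence probes, so 2-fold is not established for it, and 8 remained at least 2-fold lower with that level in place of lower values. The median of the 18 differences was -0.99 as deposited and -0.93 with that level as a floor, against 0.01 as deposited for all sequences with a symbol. The 2 that were higher were the single sequences of Arpc1a and Arpc5l. Neither deposited difference reached 2-fold, a size that 5.99% of all sequences reached on the higher side, and for Arpc5l only a lower bound of the fold is known. Taking only the brightest sequence of each gene (by mean log2 value), 7 of 9 genes were lower and the median was -0.92, beside 0.02 for all genes (0.03 for the 16245 genes with a value above the median of its array), of which 48.3% were lower. At least 2-fold lower by this measure were Actr3, Arpc5 and Actr2, 3 of 9 genes, beside 6.42% of all genes, and none was 2-fold higher, beside 5.94% of all.

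Markers of some other blood cells also differed between the arrays, in either direction. Of 19 neutrophil and monocyte markers, 15 were lower in the knockout (median -0.76), beside 48.3% of all genes. At least 2-fold lower were 4 of 19, beside 6.42% of all genes, and 1 was at least 2-fold higher, beside 5.94%. The summed intensity of the 19 was 61869 in the knockout and 150847 in the control. The brightest, S100a8, S100a9 and Ngp, differed by -1.50, -1.39 and -1.65. By brightest sequence, the 4 that were higher were Csf1r (1.19), Itgam (0.77), Ly6c2 (0.62) and Fcgr3 (0.55). Csf1r and Itgam were each lower with 2 of 3 sequences, and Fcgr3 with 1 of 3. Of 13 erythroid markers, 12 were higher and 1 was lower (median 1.76), and 9 were at least 2-fold higher, beside 5.94% of all genes. Their sum was 83835 in the knockout and 16338 in the control. The brightest, Hbb-b1, Hba-a2 and Hba-a1, differed by 2.92, 2.27 and 2.41. Hba-a1 and Hba-a2 are near-identical, so their probes may share signal. The medians were 0.14 for 8 B lymphoid, 0.11 for 8 T and NK lymphoid and -0.02 for 5 megakaryocyte markers. Of the T and NK markers, 1 of 8 was at least 2-fold higher, beside 5.94% of all genes. It was Klrb1c (1.28), which was lower with 1 of its 3 sequences. Of the megakaryocyte markers, 3 were lower and 2 higher. At least 2-fold lower were Pf4 (-1.19) and Ppbp (-1.40), 2 of 5, beside 6.42% of all genes. No marker value was 0. Leukocytes in general express Arp2/3 genes, the part of these cells in the subunit differences was not tested, and fewer cells of a type and less RNA per cell cannot be told apart in such samples. The level of random-sequence probes was 75.7 on the knockout array and 71.3 on the control array. Of 13 LT-HSC and sort markers, 10 were above it on at least 1 array, while Procr, Tek and Fgd5 were at or under it on both. By brightest sequence, 7 of the 13 were lower and 6 higher (median -0.10). At least 2-fold lower were 2 of 13, beside 6.42% of all genes, and none was 2-fold higher, beside 5.94%. The 2 were Cd48, by at least 2.01-fold, and Mecom (-1.10, with 4 of 6 sequences lower). Kit was at 489 in the knockout and 398 in the control with its brightest sequence, while 2 of its 4 sequences were lower. Ly6a was at 596 in the knockout and 835 in the control, and Cd34 at 1105 in the knockout and 746 in the control. The list mixes genes that a sort can select for or against, Cd34 among them, so these levels are no check of cell identity. Over all sequences the arrays had medians of 137 each, upper quartiles of 329.9 in the knockout and 328 in the control, and a Pearson correlation of 0.922 between their log2 values over the 44170 sequences, a description only, since sequences share the same RNA.

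The letters just before the start of 4 subunit genes are shown, since most subunits were lower together while Arpc1a was higher. They are the 250 bases upstream of the RefSeq start on GRCm38.p6, read along the gene: Actr3 at chr1:125435728-125435977 (minus strand), Arpc2 at chr1:74236267-74236516, Arpc5 at chr1:152766292-152766541 and Arpc1a at chr5:145083619-145083868 (plus strand). Capitals mark CGGAAG, the core of many ETS-family sites, on either strand (CTTCCG when on the other strand).
Actr3: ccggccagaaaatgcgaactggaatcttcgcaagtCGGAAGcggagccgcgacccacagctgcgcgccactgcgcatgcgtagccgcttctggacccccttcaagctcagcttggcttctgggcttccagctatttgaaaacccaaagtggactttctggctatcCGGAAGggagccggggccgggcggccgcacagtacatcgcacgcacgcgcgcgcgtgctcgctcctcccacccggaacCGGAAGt
Arpc2: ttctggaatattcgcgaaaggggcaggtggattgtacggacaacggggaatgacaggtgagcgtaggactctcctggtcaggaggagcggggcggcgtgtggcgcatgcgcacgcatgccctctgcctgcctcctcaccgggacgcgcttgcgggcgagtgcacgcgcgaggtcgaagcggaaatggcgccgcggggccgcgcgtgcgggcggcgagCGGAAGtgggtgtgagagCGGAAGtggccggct
Arpc5: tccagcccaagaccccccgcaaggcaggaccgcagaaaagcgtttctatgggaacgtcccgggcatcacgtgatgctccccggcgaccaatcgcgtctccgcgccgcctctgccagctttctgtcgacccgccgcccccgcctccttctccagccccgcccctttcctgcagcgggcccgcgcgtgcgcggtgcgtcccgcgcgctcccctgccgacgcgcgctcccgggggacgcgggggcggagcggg
Arpc1a: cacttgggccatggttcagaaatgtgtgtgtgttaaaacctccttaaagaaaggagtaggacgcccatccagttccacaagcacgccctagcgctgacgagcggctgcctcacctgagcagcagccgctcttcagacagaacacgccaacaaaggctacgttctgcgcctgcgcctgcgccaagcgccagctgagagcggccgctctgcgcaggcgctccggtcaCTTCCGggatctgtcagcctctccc
The set of RefSeq promoters used here held such a stretch for 8 of the subunit genes and none for Arpc5l, the other subunit that was higher. CGGAAG was present in 7 of the 8, beside 13.6% of all 32851 promoters of the same length. Arpc5, whose sequences were both lower, had none, and Arpc1a, which was higher, had 1. In Actr3 the motif occurred 3 times, in Arpc2 2 times and in Arpc3, Arpc4, Actr2 and Arpc1b once each. The Sp-factor motif GGGCGG was in 5 of 8 (32.7% of all), CCAAT in 2 (33.8%), the E-box CACGTG in 1 (6.02%) and the CArG box of serum response factor in 1 (1.47%), all searched on both strands. The 8 stretches held 51.2% to 74.4% G and C, beside a median of 52.4% for all, and the shares over all promoters were not matched for this. The motifs were picked with these sequences in view, and a match describes letters and is no binding site.

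**Figure D1:**
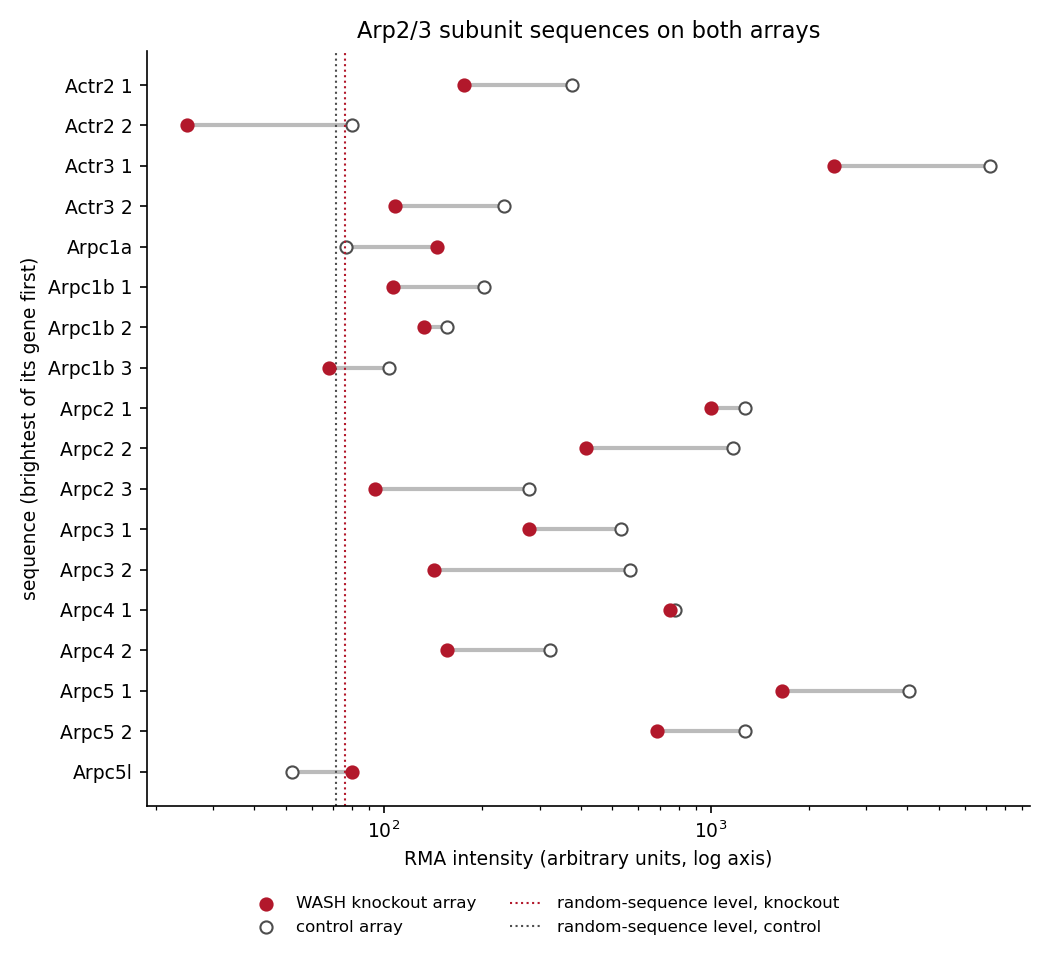
RMA intensity (log axis, arbitrary units) of each of the 18 subunit sequences, with the knockout as a filled point and the control as an open point of the same row. The number after a gene counts its sequences from the brightest, and dotted lines give the level of random-sequence probes, 75.7 on the knockout array and 71.3 on the control array. The knockout point lies to the left in 16 rows and to the right for Arpc1a and Arpc5l.

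Actr3, which encodes Arp3, was more than 2-fold lower with both of its sequences. Its sequence BC080806 (chromosome 1, 127289482 to 127332265, MM9) was at 2388 on the knockout array and at 7159 on the control array, a difference of -1.58. The other sequence, BC005557, was at 108 in the knockout and 233 in the control (-1.11). Both sequences span nearly the same stretch of the gene. Actr2, which encodes Arp2, had 176 in the knockout and 378 in the control with BC027799 (chromosome 11, 19962306 to 20012916), a difference of -1.10. Its dimmer sequence AK033014 was at 24.98 in the knockout, under the random-sequence level, and at 79.6 in the control, just above it, so its fold is known only as at least 1.05-fold lower. The nucleating pair was thus lower with all 4 of its sequences, 3 of them measured above the random-sequence level on both arrays.

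Arpc2 and Arpc4 form the core that lies along the mother filament, and in each the brightest sequence differed least. For Arpc2 (chromosome 1, 74283325 to 74314415 for BC115750) the brightest sequence was at 1003 in the knockout and 1274 in the control (-0.34). AK083263 was at 416 in the knockout and 1168 in the control (-1.49). AK170061 was at 93.5 in the knockout and 278 in the control (-1.57). All 3 were lower, and their span of 1.23 was the widest of any subunit gene, although their positions on the gene overlap almost fully. Arpc4 (chromosome 6, 113328108 to 113339643 for AK159410) was at 750.1 in the knockout and 776 in the control, a difference of -0.05. Its second sequence, BC055309, was at 156 in the knockout and 321 in the control (-1.04). The exons that the probes lie on are not known here, so transcript forms and probe behaviour cannot be told apart.

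Arpc3, a small subunit beside Arp3, held the lowest difference of all 18. With BC013618 (chromosome 5, 122841936 to 122856187) it was at 142 in the knockout and 565 in the control, 3.98-fold lower (-1.99), a value that 0.456% of all sequences with a symbol equalled or fell below. With BC054440 it was at 277 in the knockout and 532 in the control (-0.94). Both sequences were lower, and their differences lay 1.05 apart.

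The ARPC1 paralogues differed in opposite directions. Arpc1b, the form prevalent in blood cells, was lower with all 3 sequences. BC003441 (chromosome 5, 145875192 to 145888929) was at 107 in the knockout and 202 in the control (-0.92). AK167978 was at 133 in the knockout and 156 in the control (-0.23). BC092051 was at 68.0 in the knockout, under the random-sequence level, and 103 in the control, hence at least 1.37-fold lower. Arpc1a, its neighbour on chromosome 5 (145844759 to 145869625, with 5500 bases between the genes), was at 145 in the knockout and 76.4 in the control (0.93). That control value was 1.07 times the random-sequence level, so the size of the difference of Arpc1a rests on a value near background. The difference of Arpc1b minus that of Arpc1a was -1.85 with the brightest sequences and -1.16 to -1.85 over the 3 pairings, below 0 in all 3. No Arpc1b sequence reached 2-fold.

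The ARPC5 paralogues also went opposite ways, but Arpc5l was close to background. Arpc5, which ties ARPC1 and Arp2 to the core, was at 1650.1 in the knockout and 4061 in the control with AK208127 (chromosome 1, 154615990 to 154622705), a difference of -1.30. With BC060143 it was at 685 in the knockout and 1276 in the control (-0.90). The 2 differences lay 0.40 apart, the closest of any subunit gene with several sequences. Arpc5l (chromosome 2, 38863635 to 38871397) was at 80.0 in the knockout, 1.06 times the random-sequence level, and at 52.1 in the control, under it, and so at least 1.12-fold higher. The difference of Arpc5l minus that of Arpc5 was 1.92 as deposited, and 1.47 with the random-sequence level in place of the lower value. Only differences, not levels, were compared between paralogues, because probes of different genes bind with different strength.

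**Figure D2:**
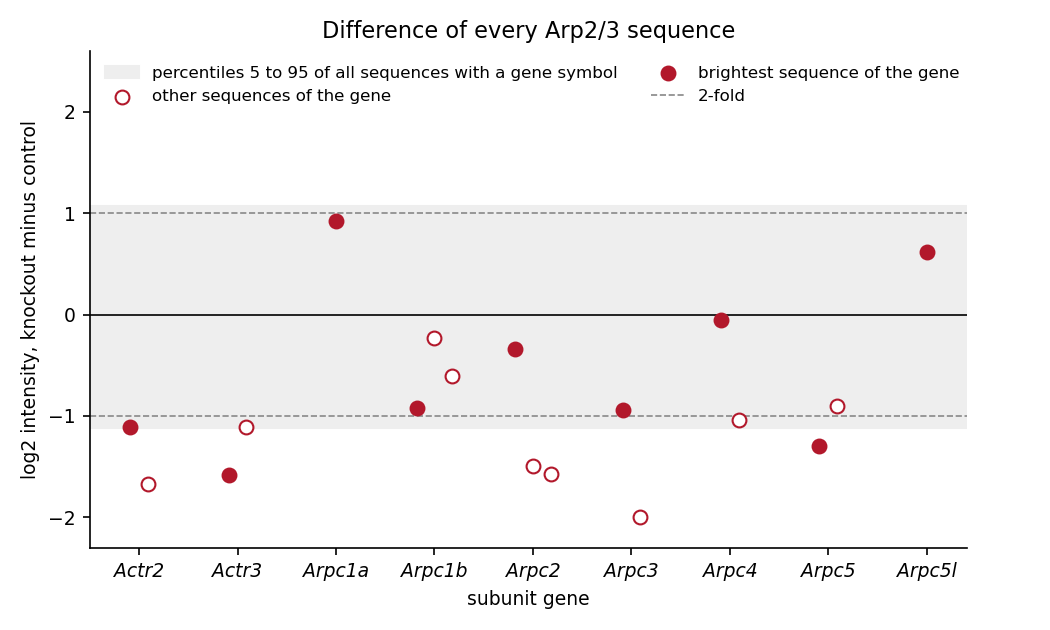
Log2 intensity of the knockout minus the control for every sequence of each subunit gene, with the brightest sequence filled and the others open. The grey band holds percentiles 5 to 95 of all sequences with a gene symbol (-1.12 to 1.07), and dashed lines mark 2-fold. All 16 sequences of the 7 genes with several sequences lie below 0, and only Arpc1a and Arpc5l lie above it.

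The sequences of a gene gave the only repeat measurement within these arrays. It covers probe noise and transcript differences, and no difference between animals. In 7 of 7 subunit genes with several sequences, every sequence was lower in the knockout, while this held for 19.0% of the 10215 genes with several sequences on the array, and 20.0% had every sequence higher. The differences within a subunit gene spanned a median of 0.69, beside 0.80 for all genes with several sequences. The spread between sequences of 1 gene was 0.66 (SD of the log2 difference, from 4969 genes with several sequences above the median of an array). Further from 0 than that spread were both sequences of Actr3, Arpc3 and Arpc5. So were 2 of 3 of Arpc2, 1 of 2 of Arpc4 and 1 of 3 of Arpc1b. Of Actr2 it was 1 of 2, the other being known only by its bound. On the higher side it was Arpc1a. How many of all sequences passed that spread was not counted. At 1.5-fold, a slightly smaller size, 2972 genes were lower and 3004 higher of the 16245 with a value above the median of its array. Passing the spread is therefore no test.

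The count was repeated on brighter sequences. Of the 18, 15 had at least 1 value above the median of its array (137 on each array), namely 10 on both arrays, 1 on the knockout array alone and 4 on the control array alone. Among all sequences with a symbol in that range, 8.23% were at least 2-fold lower and 6.80% at least 2-fold higher, and by brightest sequence 7.29% of genes were lower and 6.41% higher by that size. A sequence that passes on 1 array alone tends to be higher there, so the 10 that passed on both were looked at by themselves. All 10, from 6 genes, were lower (-0.05 to -1.99, median -1.07), and 6 were at least 2-fold lower. Of all sequences above the median on both arrays, 49.0% were lower and 4.94% at least 2-fold lower, with a median of 0.01. All sequences were also split into 4 bins of equal size by mean log2 intensity. At least 2-fold lower as deposited were 1 of 2 subunit sequences in the dimmest bin (5.81% of all there), which is the Actr2 sequence known only by its bound, 0 of 2 in the next (8.04%), 5 of 7 in the next (7.33%) and 3 of 7 in the brightest (6.03%). Arpc1a and Arpc5l lay in the 2 dimmer bins.

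**Figure D3:**
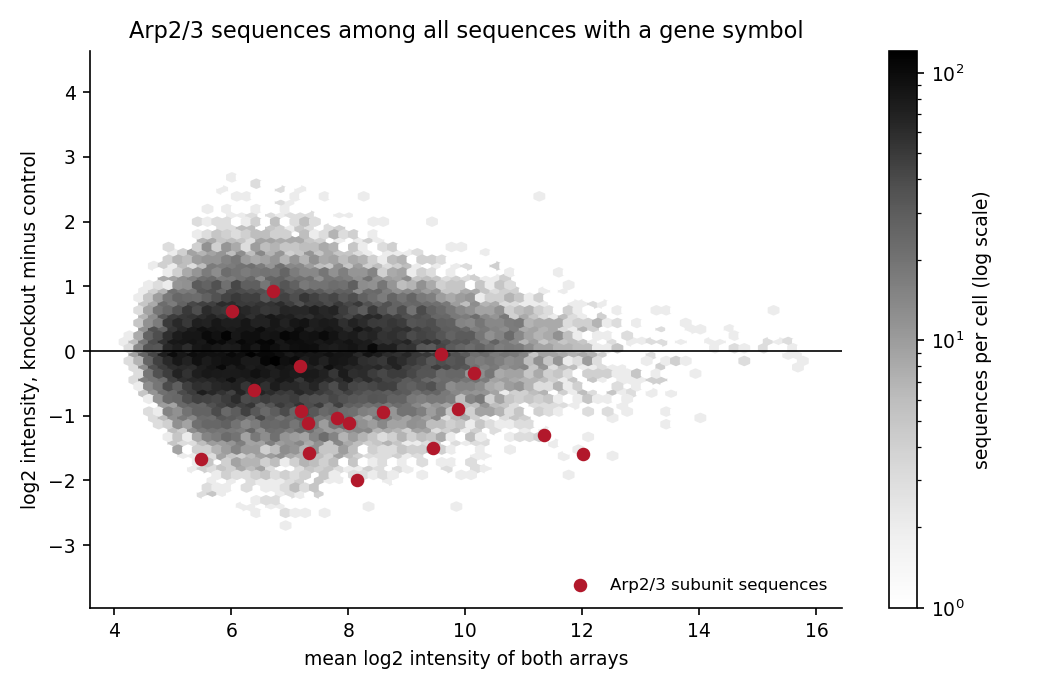
Difference (log2 intensity, knockout minus control) against mean log2 intensity for all 41886 sequences with a gene symbol, shaded by the number of sequences per cell on a log scale, with the 18 subunit sequences in red. All 14 subunit sequences in the 2 brighter bins lie below 0.

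Actr3b, a paralogue of Actr3 outside the set, had smaller differences of mixed sign. Its 3 sequences were at 466, 400.5 and 289 in the knockout and at 601, 354 and 183 in the control, in the same order, with differences of -0.37, 0.18 and 0.65. The difference of Actr3b minus that of Actr3 was above 0 in all 6 pairings of sequences, from 0.74 to 2.24. Of the 9 measured actin-related proteins outside the complex, 5 were lower against 4 higher (median -0.03), while 48.3% of all genes were lower.

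The proteins that switch the complex on differed little as a list. Of 27 measured activators and their partners (the WASP, WAVE and WASH families, cortactin, Cdc42 and Rac genes), 15 were lower against 12 higher (median -0.10). Of all genes, 48.3% were lower. As deposited, 2 of 27 were at least 2-fold lower, beside 6.42% of all genes, and for 1 of these, Brk1, a WAVE complex subunit, the fold is known only as at least 1.12. Washc1, the gene of WASH itself, was at 107 in the knockout and 119 in the control (-0.15). Where its probes sit relative to the deletion is not known, so this value is no check of the genotype. In the same list Washc2, the large WASH complex subunit that binds endosomes, was at 151 in the knockout and 466 in the control (-1.63), and all 3 of its sequences were lower. No difference between the lists was tested.

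Proteins that hold back the complex or take its branches apart were likewise mixed. Of 11 measured, 6 were lower against 5 higher (median -0.01), while 48.3% of all genes were lower. As deposited, 2 of 11 were at least 2-fold lower, beside 6.42% of all genes, and none was 2-fold higher, beside 5.94%. For 1 of the 2, Gmfb, the fold is known only as at least 1.49. Ap1ar, which encodes gadkin, a protein that binds the complex on vesicles, was at 70.1 in the knockout, under the random-sequence level, and at 170 in the control, at least 2.25-fold lower. Other actin nucleators, mainly formins, which grow unbranched filaments, gave a median of 0.18. Of the 17 measured, 5 were lower and 12 higher, beside the same 48.3% of all genes lower. By at least 2-fold, 2 of 17 were lower and 2 higher, beside 6.42% and 5.94% of all genes. Diaph1, a formin, was lower with all 3 sequences (-1.08 to -1.66), and Diaph2 with both (-0.11 and -1.72). Cobl, a nucleator that works with several actin-binding WH2 segments, was higher by 1.06 and Fmnl3 by 1.11 with the brightest sequence, while another Fmnl3 sequence differed by -0.87.

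Genes of actin monomer supply and filament turnover were lower more often than not. Lower values were found for 14 of 19 measured genes (median -0.39), beside 48.3% of all genes, and 6 of 19 were at least 2-fold lower, beside 6.42% of all genes. Tmsb4x, the gene of the monomer-holding peptide thymosin beta 4, was at 8194 in the knockout and 22846 in the control (-1.48). The filament-severing genes Dstn and Cfl1 differed by -1.44 and -1.13. Cap1, which recycles actin monomers, was lower with all 4 sequences (-0.03 to -1.57). Gsn and Capg, which cut or cap filaments, differed by -1.10 and -1.24.

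**Figure D4:**
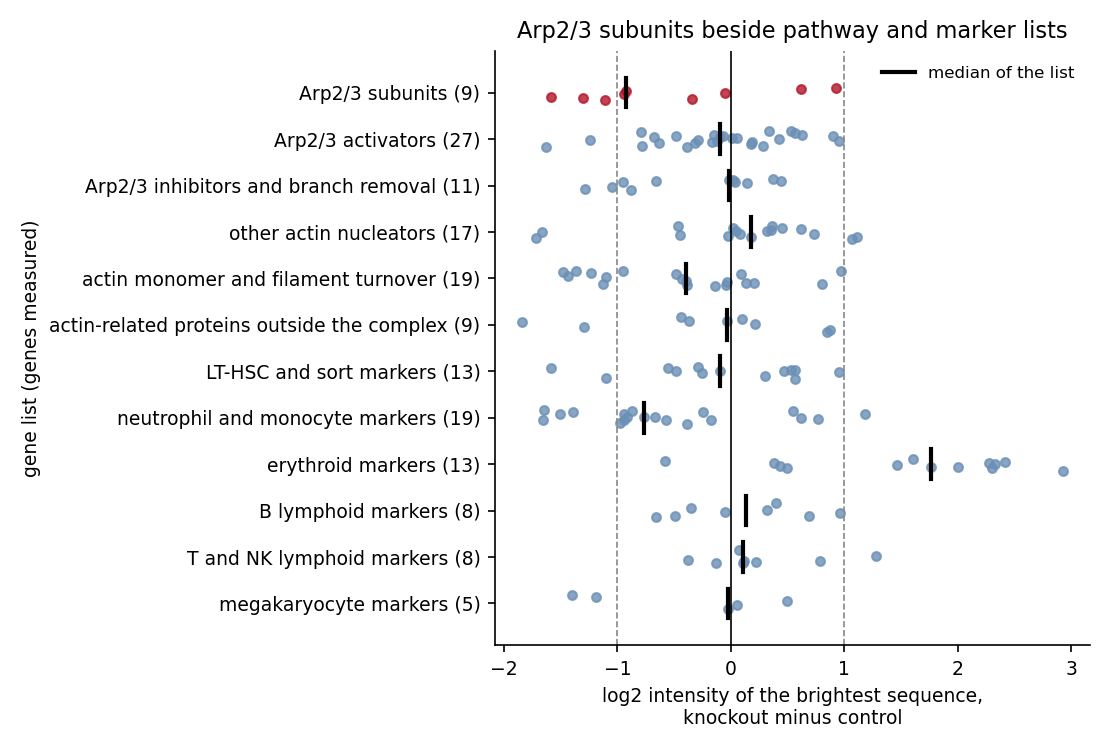
Log2 intensity of the knockout minus the control for the brightest sequence of each gene, with the Arp2/3 subunits in red, pathway and marker lists in blue, and a black bar at the median of each list. The subunit median of -0.92 lies to the left of those of the activators (-0.10), the inhibitors (-0.01), the other nucleators (0.18) and the turnover genes (-0.39), and among the marker lists the medians furthest from 0 are those of the neutrophil and monocyte markers (-0.76) and erythroid markers (1.76).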

How the data were processed

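The authors deposited 1 RMA intensity per sequence for each Cy3-labelled NimbleGen array, on a linear scale. RMA comes from the submitters' processing notes, with no version stated there. Sequence coordinates, per the file headers, are on MM9, and 44155 of 44170 sequences were summarised from 3 probes. RMA usually pulls arrays to a common distribution, so a shift of most genes one way would not be visible. Probe positions were not used here. The number of arrays limits the precision.

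Values were put on the log2 scale with no added scaling (Python 3.11.15, pandas 2.3.3). Symbols were updated through the RefSeq table (GRCm38.p6), where 39057 sequences matched by gene identifier. For 2284 sequences there was no symbol. The random-sequence level came from 5000 probes. A fold is given as at least a value where 1 array lay under that level. The detected range means at least 1 value above percentile 50 of its array. Changes were counted at 2-fold. A median or single-gene value counted as moved under an alternative when it shifted by more than a limit. That limit was the spread between sequences of 1 gene divided by the square root of the number of genes. For the paralogue comparisons it was 0.93, and counts were judged by a factor of 1.5. The named genes were all subunits, Actr3b, Washc1, pathway genes at 2-fold or more in the detected range (or the 2 largest) and the 3 brightest markers of a list. Brk1, Gmfb, Csf1r, Itgam, Ly6c2, Fcgr3, Klrb1c, Ppbp, Cd48, Mecom, Procr, Tek and Fgd5 fall outside this rule and were named after their values were seen. No gene was named for a like pattern, since 2 arrays give none. The steps were tested on simulated data with changes larger than 2-fold and less noise than the spread between sequences of 1 gene. That checks the code and not the counts. The subunits and lists were chosen with earlier results of these data known. Some listed genes are not analysed here.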

Additional observations from a re-analysis of the deposited data

How the results depend on the processing

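No paired analysis was possible because a single array stands for either genotype. The subunit median over genes ranged from -1.10 to -0.55 over 12 alternatives, the last with an offset of 100 before log2. That offset left 4 of 18 subunit sequences 2-fold lower, beside 478 of 16254 genes, and shrinks differences of dim sequences by construction. No filter on dim sequences gives the reported subunit and list values by construction, so it is no separate check of them. The count of 9 of 18 sequences became 5 of 9 with the percentile 75 filter, beside 676 of 9475 genes. At 3-fold it became 2 of 18, beside 280 of 16245 genes. Of these 2 sequences, 1 is the Actr2 sequence known only by its bound. Genes are counted here by their brightest sequence. At 1.5-fold, 13 of 18 were lower and 2 higher, beside 2972 lower and 3004 higher of 16245 genes. The 2-fold count was 8 of 18 with the random level in place of lower values, beside 1141 of 16265 genes. Each subunit gene kept its direction under 8 alternatives, which include loess, quantile normalization, centring and the series table (17 of the 18 sequences). Many of these 72 values could not turn, so their number is no measure of robustness. The series table repeats the array intensities, and an offset cannot change a direction. Arpc1a and Arpc5l have 1 sequence each, which is also their mean and their dimmest. Of the 72 values, 4 moved: Arpc2 to -1.14 (mean of sequences) and -1.57 (dimmest), Arpc3 to -1.99 and Arpc4 to -1.04 (dimmest). The inhibitor median near 0 turned to 0.14 (percentile 75), 0.0021 (percentile 50), 0.22 (mean of sequences) and 0.035 (above the median on both arrays) and moved to -0.36 (dimmest). The activator median turned to 0.0064 (above the median on both arrays) and 0.041 (random level). The median of other nucleators moved to 0.40 (percentile 75) and turned to -0.056 (dimmest). The turnover median moved to -0.61 (mean of sequences) and -0.58 (dimmest). The cause was not tested. Genes at least 2-fold lower and higher in the detected range numbered 1185 and 1042 of 16245. With the offset they were 478 and 336 of 16254, and at percentile 75 they were 676 and 538 of 9475. Of 16245 genes, 2972 and 3004 passed 1.5-fold, and 280 and 242 passed 3-fold. Above the median on both arrays they were 628 and 497 of 13224, and with the mean of sequences 803 and 677 of 13905. These sets differ in size, so the numbers alone do not compare. The percentile 50 filter on subunits and lists, the requirement of both medians and the random level as a floor were added after seeing the data.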
